A study of Mus musculus with 2 samples.

Results

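The 41 Wnt pathway genes described here comprised 18 Wnt ligands, 10 Frizzled receptors, 4 coreceptors (Lrp5, Lrp6, Ror1 and Ror2), 4 secreted antagonists (Sfrp1, Sfrp2, Dkk1 and Dkk2), 3 R-spondins and 2 genes that respond to the pathway, Axin2 and Lef1. They are defined by gene symbol alone, among the 21937 genes counted in cells of E11.5 mouse embryos. All 41 symbols were found, and 40 held at least 50 unique molecular identifiers (UMIs, each standing for 1 captured transcript) over the cells used. The exception was Wnt10b, with 34 UMIs. The 41 genes together held 92919 UMIs, of which 14452 belonged to ligands, 22487 to Frizzled receptors, 23308 to coreceptors, 16891 to antagonists, 8243 to R-spondins and 7538 to the responding genes.

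The cells came from 4 suspensions that were tagged with oligos, pooled and captured as 1 library. F0_8 and F0_9 were each a founder embryo, made from an egg that received mRNA of the mPBase transposase by electroporation and, by injection, an EGFP cassette under the CAG promoter linked to a DNA barcode. F1_1 was 1 embryo of the F1 generation, and F1_mix was an artificial mosaic of cells from 2 other F1 embryos, counted here as 1 suspension. All 4 suspensions carried the transgene, no suspension without it was measured, the study's methods name C57BL/6J oocytes and sperm for the injected eggs, and the mates that gave the F1 embryos are not given in the sources used here. Of 6006 barcodes in the 4 matrices, 5678 were cells of the authors' annotation (1599, 1318, 1310 and 1451 of the suspensions F0_8, F0_9, F1_1 and F1_mix), and no barcode was shared between suspensions.

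Wnt proteins are secreted, lipid-modified signals that bind Frizzled receptors on nearby cells. With the coreceptors Lrp5 or Lrp6 they stabilize beta-catenin, which then acts with factors of the TCF/LEF family on target genes such as Axin2, whereas with Ror1 or Ror2 they act on cell shape and movement without beta-catenin. R-spondins raise the amount of receptor at the cell surface, Sfrp proteins bind Wnt ligands outside the cell, and Dkk proteins block the Lrp coreceptors. In the midgestation embryo, Wnt signals from the dorsal midline of the neural tube, from surface ectoderm and from mesenchyme pattern the spinal cord, limbs and organs.

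Levels are UMIs of a gene per 1000000 gene UMIs (CPM), summed over the cells of a cell type in a suspension. Since the kit counts transcript ends, levels were compared between cell types for 1 gene and not between genes. Sums over a role and the limit of 10 CPM used below take the levels as they are, so genes with many UMIs weigh most in them. The suspensions held 16052917 to 19160116 gene UMIs, with medians of 10880 to 13267 per cell. The 16 cell types are the authors' clusters of these same cells, so differences between types were described by the spread over the 4 suspensions and were not tested. In all, 9 types were deep (median of 10898.5 gene UMIs or more) and had at least 20 cells in every suspension, and these 9 were ranked. Another 4 types (Hepatocyte, Foregut, Midgut and Endodermal Progenitor, 1369 cells) were shallow, with medians of 721.5 to 1674 gene UMIs, and 3 types of blood and vessel cells had too few cells in some suspensions. In 7 of the 16 types the 4 marker genes of the type's own name summed to their highest level of all types. The neuron markers were highest in the cells annotated Neuroectoderm/Glia, at 7449 CPM, against 6030 in CNS Neuron, and none of the 4 markers for Midgut was found in cells of that name, so names are used here only as the authors' labels. In the cells annotated Ependymal Cell, markers of the roof plate (Lmx1a, Gdf7 and Msx1) summed to 302 CPM, the highest of all types, of which Msx1 made up 186 (181 in Myoblast/Cardiomyocyte), and the ependymal marker Ccdc153 was at 0. The lists for neural crest and Schwann precursors (354 CPM), gut mesenchyme (179) and hepatocytes (1313, with Alb, Afp and Apoa1 at 0) were also highest in these cells. Red blood cells (204 cells), which should lack most of these genes, held a median of 0.510 CPM over the 41 genes, the level of 3 counts. Droplets of 100 to 300 gene UMIs gave the level in free RNA, which was 84.2 CPM for Wnt5a, 282 for Ror1 and 1.83 for Wnt1.

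Many of the ligands had 1 cell type that stood above the others in every suspension. Of the 40 measured genes, 18 (45.0%) had the same leading type in all 4 suspensions, against 26.5% of the 14137 genes with at least 50 UMIs. The 18 were 9 ligands, 5 Frizzled receptors, Ror1, Sfrp1, Lef1 and Rspo1, and in 14 of them the 4 values of the leading type lay above all 4 values of the next type. The median ratio of the leading to the next type was 2.66 for these 18 genes and 1.48 for all genes so led. The 22 other measured genes overlapped the next type, with ratios of at most 3.91, and led in 1 to 3 suspensions. By type, Epithelial Cell led 6 of the 18 genes, Ependymal Cell 4, Gut Mesenchyme/Amniotic Mesoderm 3, Neuronal Progenitor 3, Chondrocyte 1 and Mesodermal Progenitor 1.

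**Figure D1:**
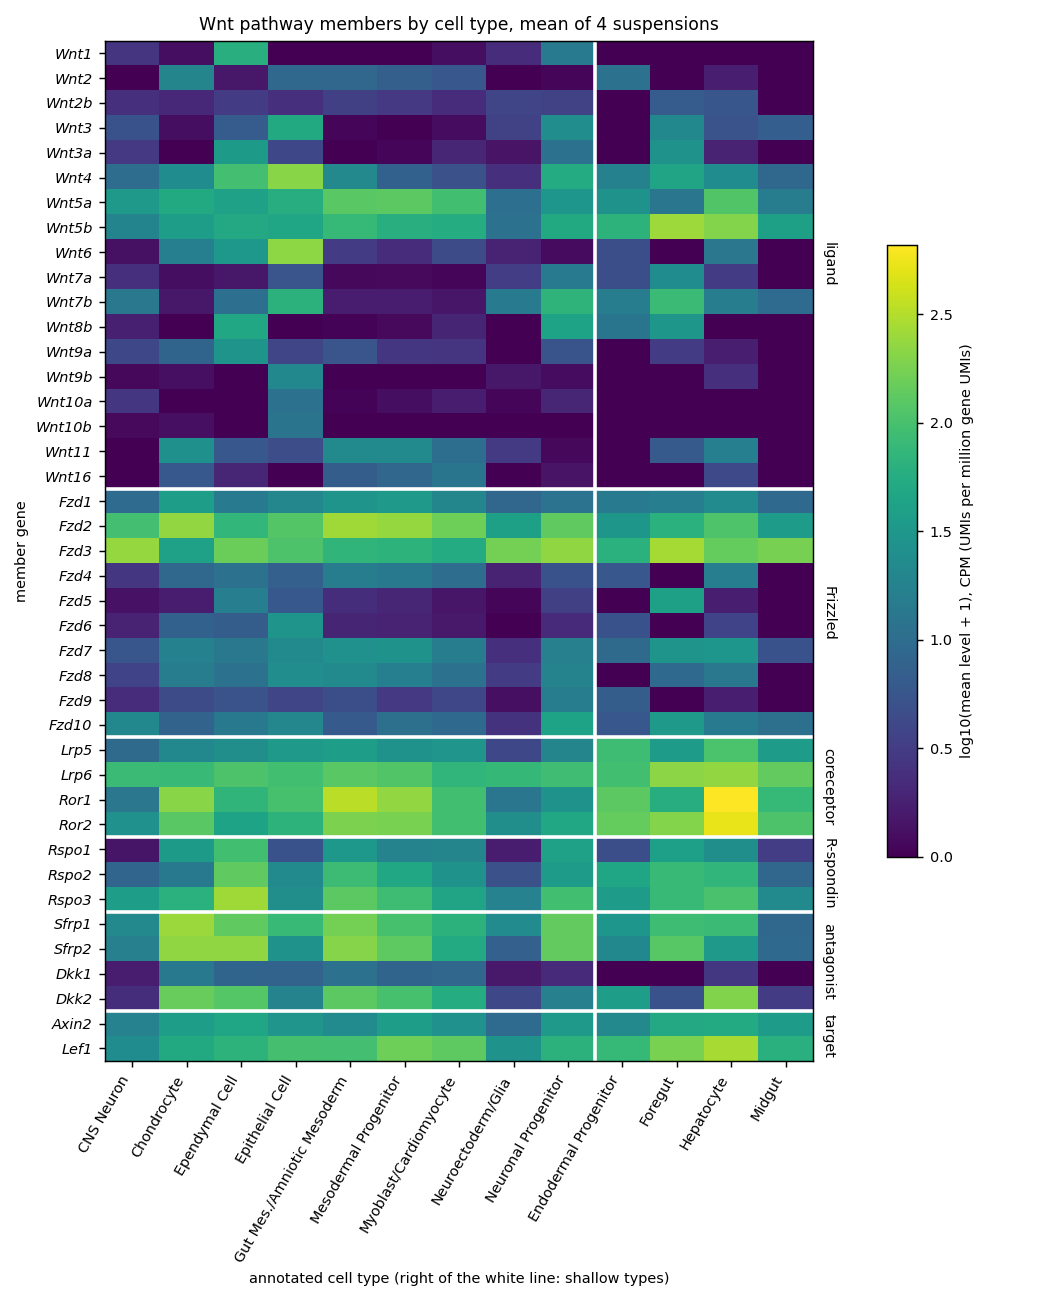
Colour gives log10 of the mean level plus 1 (CPM, mean of 4 suspensions) of each of the 41 genes (rows, grouped by role) in 13 annotated cell types (columns; the 4 shallow types are right of the white line). Most ligands are bright in 1 to 3 columns, with Wnt6 at 220.3 in Epithelial Cell and 0.210 in Neuronal Progenitor, whereas Lrp6 is at 71.8 or more in every deep column.

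Epithelial Cell led more of the ligands than any other ranked type. Wnt4, a ligand of kidney and gonad development, was at 241, 218, 181 and 198 CPM in Epithelial Cell (F0_8, F0_9, F1_1 and F1_mix in this order, here and in what follows), with a mean of 209 ± 26.1 (SD, n = 4). Its next type, Ependymal Cell, had 93.9 ± 61.3 and overlapped that range. Wnt6, a ligand of surface ectoderm, was at 195, 241, 256 and 189 (220.3 ± 33.2), and all 4 values exceeded those of the next type, Ependymal Cell, at 30.8 ± 42.6. Wnt3, which is needed for limb outgrowth, was at 36.2, 40.1, 55.4 and 70.8 (50.6 ± 15.8), above Neuronal Progenitor at 23.4 ± 6.36. The rarer ligands were also highest in these cells. Wnt9b, a ligand of the face and the nephric duct, was at 4.02, 17.5, 26.6 and 31.3 (19.8 ± 12.0), with 0.538 in the next type. Wnt10a, known from skin and tooth, was at 10.0, 12.2, 12.2 and 8.24 (10.7 ± 1.92), with 1.78 in CNS Neuron. The 34 UMIs of Wnt10b also gave their highest level there, 11.2 ± 7.55, against 0.320 in Chondrocyte. Markers of surface ectoderm (Trp63, Krt5, Krt14 and Grhl3) summed to 487 CPM in Epithelial Cell, the highest of all types.

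Ependymal Cell, which held 40, 32, 32 and 33 cells, led in Wnt1 and Wnt3a, ligands known from the dorsal neural tube. Wnt1, which maintains dorsal neural progenitors, was at 44.8, 87.5, 42.6 and 61.5 (59.1 ± 20.7), above Neuronal Progenitor at 13.2 ± 5.55. Wnt3a, its partner in the dorsal midline, was at 28.5, 28.4, 52.0 and 24.6 (33.4 ± 12.6), above 10.4 ± 3.58 in Neuronal Progenitor. Both genes had 0 UMIs in the 674 cells of Gut Mesenchyme/Amniotic Mesoderm, which allows a level of up to 0.331 CPM. Wnt8b and Wnt9a had their highest means here as well, at 47.7 ± 16.1 and 27.5 ± 9.59, in 2 and 3 of the suspensions, and both overlapped their next type.

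In Neuronal Progenitor, Wnt7a led and 6 other ligands reached 10 CPM in every suspension, of which Wnt4, Wnt5a, Wnt5b and Wnt8b also did so in Ependymal Cell. Wnt7a, a ligand of the ventricular zone, was at 11.0, 15.6, 16.3 and 13.2 (14.0 ± 2.42), above Epithelial Cell at 4.59 ± 3.64. Wnt7b, its close relative, was shared between these types, with 67.8 ± 21.8 in Neuronal Progenitor and 64.6 ± 17.6 in Epithelial Cell, and led in 2 suspensions. Cells annotated Neuroectoderm/Glia had the lowest mean of the 9 types for 24 of the 40 genes, 3 of them tied at 0 with other types, and no ligand reached 10 CPM there in every suspension.

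Wnt5a and Wnt5b, ligands known mostly for signals without beta-catenin, had their highest means in mesenchymal types but also reached 10 CPM in every suspension of CNS Neuron, Neuronal Progenitor, Ependymal Cell and Epithelial Cell. Wnt5a, which directs elongation of limbs and gut, was at 132, 147, 106 and 124 in Mesodermal Progenitor (127 ± 17.1) and at 125 ± 39.8 in Gut Mesenchyme/Amniotic Mesoderm, so that these types could not be ordered. Wnt5b was at 87.3, 80.2, 63.8 and 74.2 in Gut Mesenchyme/Amniotic Mesoderm (76.4 ± 9.98), just above Mesodermal Progenitor at 58.3 ± 5.74. Wnt11, a ligand of cell movement, had 24.8 ± 13.8 in Chondrocyte and 21.4 ± 9.67 in Mesodermal Progenitor. Wnt2 led in 3 suspensions in Chondrocyte (18.5 ± 6.01), and Wnt16 in 2 suspensions in Myoblast/Cardiomyocyte (11.4 ± 6.33). Wnt2b was low in every deep type, with its highest mean at 2.86 ± 1.68.

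**Figure D2:**
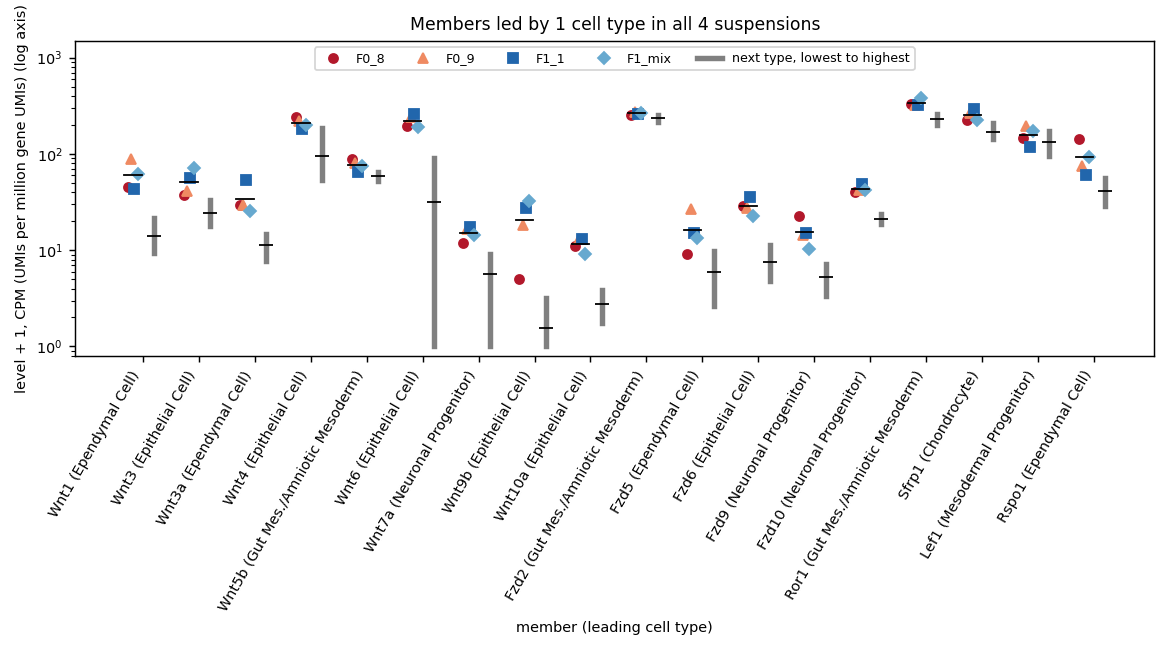
The level plus 1 (CPM, log axis) of the 18 genes with the same leading type in all 4 suspensions: coloured symbols are the 4 suspensions in the leading type, short black lines the means, and grey bars the lowest to highest value in the next type. For 14 genes the symbols lie above the grey bar, and for Wnt4, Fzd2, Fzd5 and Lef1 they overlap it.

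A window of Wnt5b and a window of Wnt11 are shown because no other window of the set held the letters searched for, a core bound by TCF/LEF factors. RefSeq windows (GRCm38.p6) of 250 bases before a transcript start were found for 29 of the 41 genes, as 35 windows. The letters CTTTGAT or, on the other strand, ATCAAAG occurred in 2 of the 35 (5.71%), against 1053 of 32851 windows of all genes (3.21%). They are in capitals in the windows of Wnt11 (chr7:98834862-98835111, plus strand) and Wnt5b (chr6:119449387-119449636, minus strand), beginning 51 and 71 bases before the start, and the window of the responding gene Axin2 (chr11:108920099-108920348, plus strand), without a match, is given for comparison.
Wnt11: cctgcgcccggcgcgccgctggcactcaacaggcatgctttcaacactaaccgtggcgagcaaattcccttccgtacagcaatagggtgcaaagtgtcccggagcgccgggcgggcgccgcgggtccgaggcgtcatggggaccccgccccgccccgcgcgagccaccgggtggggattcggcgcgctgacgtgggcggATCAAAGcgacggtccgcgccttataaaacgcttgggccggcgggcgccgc
Wnt5b: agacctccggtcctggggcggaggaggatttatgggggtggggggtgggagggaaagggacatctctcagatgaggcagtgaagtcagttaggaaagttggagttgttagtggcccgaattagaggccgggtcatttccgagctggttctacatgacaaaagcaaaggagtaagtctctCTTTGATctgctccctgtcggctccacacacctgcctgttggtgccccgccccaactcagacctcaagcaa
Axin2: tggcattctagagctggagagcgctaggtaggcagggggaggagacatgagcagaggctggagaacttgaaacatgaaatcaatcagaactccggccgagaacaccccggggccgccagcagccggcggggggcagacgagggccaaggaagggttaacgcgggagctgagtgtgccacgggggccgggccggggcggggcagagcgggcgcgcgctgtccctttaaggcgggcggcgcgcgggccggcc
The letters TATAAA occurred in 4 of the 35 windows (11.4%), against 7.59% of all windows, and the windows of the set had a median GC content of 66.8%, against 52.4%. The other windows of Wnt5b (chr6:119467212-119467461 and chr6:119544348-119544597) and Wnt11 (chr7:98838595-98838844) held neither CTTTGAT nor ATCAAAG. No other letters bound by TCF/LEF factors were searched for. A match of letters is not a bound site, and other parts of these genes were not searched.

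Several ligand genes lie side by side in the genome. Within 50000 bases there were 4 neighbouring pairs among the 41 genes, of which 3 had the same type of highest mean. The share for neighbouring genes in general was not computed. Wnt6 (chr1:74754342-74785322) and Wnt10a (chr1:74792019-74804176) are separated by 6696 bases and both led in Epithelial Cell. Wnt3a (chr11:59248036-59290751) and Wnt9a (chr11:59306849-59333552) are 16097 bases apart and both had their highest mean in Ependymal Cell, Wnt9a in 3 of 4 suspensions and overlapping its next type. Wnt9b (chr11:103727362-103775272) and Wnt3 (chr11:103774175-103818021) both led in Epithelial Cell. Their annotated spans share 1098 bases at the starts of both genes, which lie on opposite strands (Wnt9b minus, Wnt3 plus). The UMIs from these bases were not counted apart. Wnt10b (chr15:98770712-98778206) and Wnt1 (chr15:98789857-98793830), 11650 bases apart, differed, with the few UMIs of Wnt10b highest in Epithelial Cell and Wnt1 in Ependymal Cell.

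Among the Frizzled receptors, Fzd2 and Fzd3 reached 10 CPM in every suspension of all 9 ranked types, but with opposite preference. Fzd2 was at 253, 269, 261 and 267 in Gut Mesenchyme/Amniotic Mesoderm (263 ± 7.30), overlapping Mesodermal Progenitor at 237 ± 17.7, and was lowest in Neuroectoderm/Glia at 39.4 ± 5.39. Fzd3, a receptor of axon guidance and neural tube closure, was at 236 ± 15.4 in CNS Neuron and 226 ± 17.6 in Neuronal Progenitor, and was lowest in Chondrocyte at 40.5. Fzd2 had a UMI in 93.3% of the cells of Gut Mesenchyme/Amniotic Mesoderm and 60.5% of those of CNS Neuron, and Fzd3 in 55.6% and 87.4%, at median depths of 13392.5 and 10898.5 gene UMIs. In Erythroblast, at a median of 29076 gene UMIs, a UMI was found in 7.64% of cells for Fzd2 and 9.03% for Fzd3.

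Of the other Frizzled receptors, Fzd6, Fzd9 and Fzd10 had a leading type whose 4 values lay above those of the next. Fzd10 was at 39.1, 41.2, 47.9 and 40.9 in Neuronal Progenitor (42.3 ± 3.86), above CNS Neuron at 19.9 ± 2.24, and Fzd9 was at 21.9, 13.4, 14.1 and 9.23 in the same cells (14.6 ± 5.29), above Ependymal Cell at 4.33 ± 1.57. Fzd6, which orients hairs and other epithelial structures, was at 28.1, 26.2, 34.4 and 21.4 in Epithelial Cell (27.5 ± 5.37), above Chondrocyte at 6.51 ± 2.79. Fzd5 was at 8.15, 26.0, 14.2 and 12.3 in Ependymal Cell (15.2 ± 7.66) and overlapped Epithelial Cell. Fzd5 was also the one gene for which red blood cells came near the leading type, with 41 UMIs, or 6.97 CPM, and 11.7 ± 8.02 in Erythrocyte, whereas the other Frizzled receptors had 0 to 4.93 there. Fzd1, Fzd4, Fzd7 and Fzd8 had means of at most 36.2 and overlapping types, led by Chondrocyte, Gut Mesenchyme/Amniotic Mesoderm, Mesodermal Progenitor and Epithelial Cell.

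Among the coreceptors, Ror1 and Ror2 had their highest means in mesenchymal types, and Ror2 and Lrp6 reached 10 CPM in every suspension of all 9 ranked types. Ror1 was at 326, 319.6, 322 and 381 in Gut Mesenchyme/Amniotic Mesoderm (337 ± 29.5), above Mesodermal Progenitor at 229 ± 24.9, and was at 11.7 in Neuroectoderm/Glia. Ror2 was at 184 ± 3.14 in Gut Mesenchyme/Amniotic Mesoderm and 179 ± 23.0 in Mesodermal Progenitor, which overlapped. Lrp6 ranged from 71.8 ± 3.62 in Myoblast/Cardiomyocyte to 123 ± 7.82 in Gut Mesenchyme/Amniotic Mesoderm. Lrp5 had its highest mean in the same cells, at 35.8 ± 2.79, in 3 of 4 suspensions.

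R-spondins, known from the roof plate, had their highest means in Ependymal Cell. Rspo1 was at 143, 73.3, 59.1 and 92.3 there (91.8 ± 36.4), above Neuronal Progenitor at 40.5 ± 11.0. Rspo3 (265 ± 97.1) and Rspo2 (134 ± 94.4) led there in 3 and 2 of the suspensions and overlapped Gut Mesenchyme/Amniotic Mesoderm, at 128 ± 13.7 and 85.9 ± 18.4.

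The 4 antagonists had their highest means in Chondrocyte. Sfrp1 was at 223, 265, 294 and 222 there (251 ± 35.2), above Gut Mesenchyme/Amniotic Mesoderm at 169 ± 33.5. Sfrp2 had 225 ± 94.2 in Chondrocyte, 224 ± 173 in Ependymal Cell and 201 ± 34.0 in Gut Mesenchyme/Amniotic Mesoderm, and the 3 types overlapped. Dkk2 (147 ± 36.7) and Dkk1 (12.8 ± 7.18) had their highest mean in Chondrocyte in 1 suspension each.

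Axin2 and Lef1, which respond to the pathway, both overlapped between their highest types. Axin2, a feedback inhibitor switched on by beta-catenin in many tissues, had its highest mean in Ependymal Cell, at 79.4, 37.8, 30.7 and 36.9 (46.2 ± 22.3), where F0_8 stood above the others. Mesodermal Progenitor (37.0 ± 3.42), Chondrocyte (36.6 ± 12.3) and Neuronal Progenitor (32.1 ± 4.09) overlapped it, and the lowest were CNS Neuron at 16.8 ± 1.86 and Neuroectoderm/Glia at 8.63 ± 2.67. Lef1, a factor of the TCF/LEF family that is itself induced by Wnt signals, was at 147, 193, 118 and 171 in Mesodermal Progenitor (157 ± 32.2), overlapping Myoblast/Cardiomyocyte at 132 ± 32.9, and was lowest in CNS Neuron at 22.5. The genes with the pattern most like Axin2 over the means of the 9 types, among 10401 genes with at least 500 UMIs, were Trip10 (Pearson r = 0.961), Eef2kmt (0.959), Cklf (0.958), Hsp90b1 (0.951), Acadl (0.948), Ngdn (0.945), Ccdc127 (0.944), Smyd5 (0.944), Poll (0.941) and Zbtb8os (0.940). These types share 1 library and differ in depth, and the values are descriptions. The most similar pairs among the 41 genes were Fzd1 with Ror1 (r = 0.963), Wnt3 with Wnt7b (0.963) and Wnt5b with Lrp5 (0.961), also over 9 types.

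**Figure D3:**
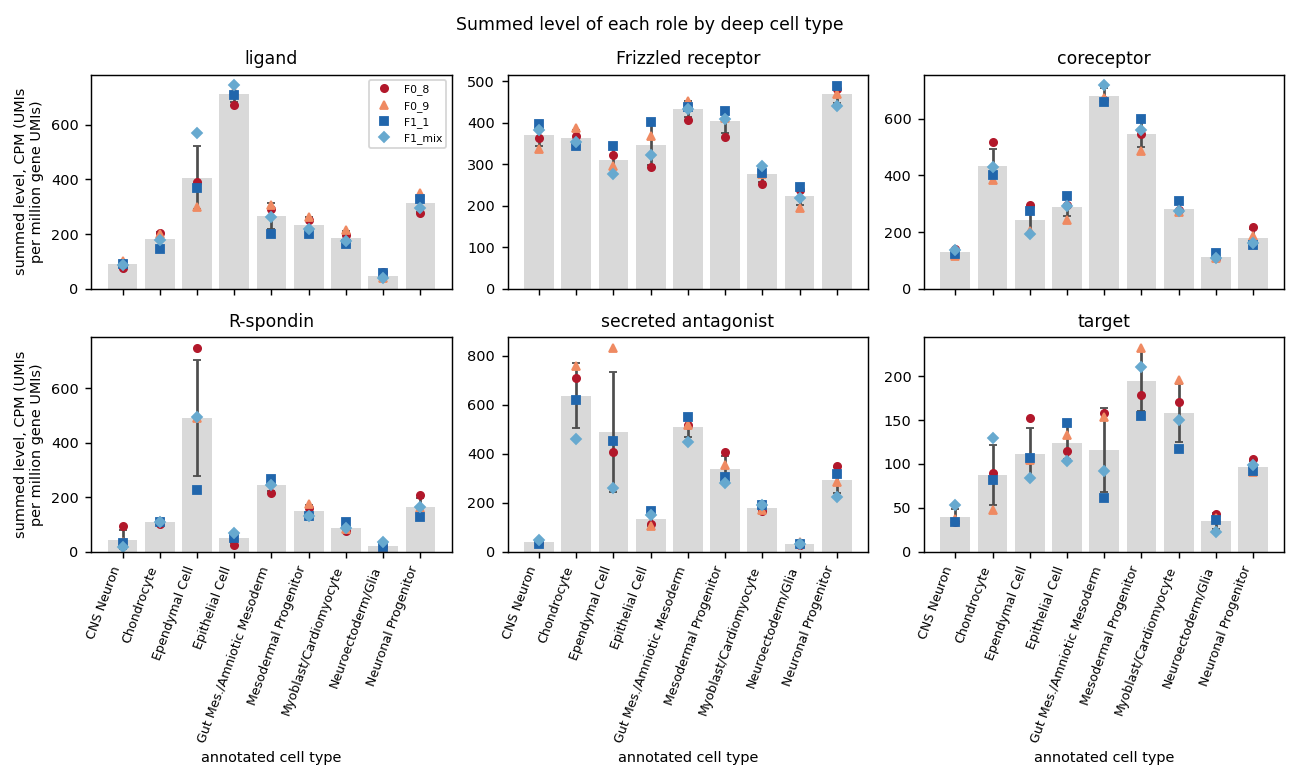
Summed level (CPM) of the genes of each role in the 9 ranked cell types: bars are means of 4 suspensions, error bars the SD, and symbols the suspensions. Ligands peak in Epithelial Cell (713 ± 30.6), Frizzled receptors in Neuronal Progenitor (470.3 ± 21.5), coreceptors in Gut Mesenchyme/Amniotic Mesoderm (680 ± 27.8), R-spondins in Ependymal Cell (491 ± 213), antagonists in Chondrocyte (636 ± 132) and the responding genes in Mesodermal Progenitor (194 ± 34.3).

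Summed by role, no ranked type had the highest mean in more than 1 role. Ligands summed to 713 ± 30.6 CPM in Epithelial Cell and 407 ± 115 in Ependymal Cell, and to 48.5 ± 11.7 in Neuroectoderm/Glia. Frizzled receptors varied less, from 225 ± 22.8 in Neuroectoderm/Glia to 470.3 ± 21.5 in Neuronal Progenitor and 433 ± 19.1 in Gut Mesenchyme/Amniotic Mesoderm. In every role the lowest mean of the 9 types was in Neuroectoderm/Glia. It overlapped CNS Neuron for the coreceptors, antagonists, R-spondins and responding genes, and also Epithelial Cell for the R-spondins. For the responding genes CNS Neuron (39.3 ± 9.01) was lower in 3 of 4 suspensions. In Neuroectoderm/Glia the coreceptors summed to 113 ± 9.19, the antagonists to 31.6 ± 4.48, the R-spondins to 21.4 ± 9.76 and the responding genes to 34.7 ± 8.94.

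The shallow and small types were described apart. In the cells annotated Hepatocyte, in which the 4 hepatocyte markers summed to 4.93 CPM with Afp at 0, Ror1 was at 661 ± 82.0, Ror2 at 532 ± 97.3 and Lef1 at 282 ± 81.1, means above those of the 9 ranked types. Of the 40 measured genes, 11 had such means there, among them Wnt5b (199 ± 16.2, against 76.4 in the leading ranked type), Lrp6 (229 ± 50.3), Lrp5 (104 ± 13.2) and Dkk2 (194 ± 69.7). In these cells the 4 markers of Mesodermal Progenitor (Prrx1, Twist1, Pax3 and Meox1) summed to 923 CPM, against 1188 in Mesodermal Progenitor, the highest of all types. The cells annotated Hepatocyte had medians of 1674 gene UMIs and of 23.0% mitochondrial UMIs. The free RNA held Ror1, Ror2 and Lef1 at 282, 215 and 156 CPM, and its part in these levels was not tested. In Foregut, Fzd3 was at 278 ± 95.3 and Wnt5b at 253 ± 65.2, from 103 and 83 UMIs. In the 76 cells of Hematoendothelial Progenitor/Endothelium, the 4 macrophage markers summed to 2267 CPM and the 4 markers of the type's name to 582. There, Lrp6 (61.9 ± 15.0), Lrp5 (37.2 ± 7.85), Lef1 (24.2 ± 8.62) and Fzd4 (19.2 ± 9.28) were detected in every suspension. The 41 genes together held 86.4 CPM in Erythroblast and 37.4 in Erythrocyte, against 471 to 2255 in the 9 ranked types.

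Other genes of the pathway, listed by function, were measured in the same way. Of 59 such genes, Ror1 and Ror2 among them, 54 held at least 50 UMIs and 17 had the same leading type in all 4 suspensions, against the 26.5% of all measured genes given above. They included 5 of 15 measured feedback and target genes and 3 of 13 modulators of ligands and receptors. Others of these lists led in fewer suspensions, with the feedback inhibitors Nkd1 highest in CNS Neuron (92.7 ± 25.1) and Nkd2 in Myoblast/Cardiomyocyte (33.8 ± 6.22), and the R-spondin receptor Lgr5 in Neuronal Progenitor (28.7 ± 4.51). In Epithelial Cell, Rnf43, a ligase that removes Frizzled from the surface, was at 59.5 ± 8.72 against 3.14 ± 3.50 in the next type, Znrf3 at 219 ± 48.6 against 113 ± 6.95, Notum, which inactivates Wnt ligands, at 13.1 ± 2.61 against 6.88 ± 4.82, and Kremen2, a Dkk receptor, at 53.0 ± 18.2 against 8.74 ± 4.37. Ctnnb1, which encodes beta-catenin, was also highest there, at 491 ± 47.5 against 370 ± 42.6 in Ependymal Cell. Tcf7l2 (381 ± 58.2), Tcf7l1 (225 ± 28.8) and Pygo1 (57.2 ± 10.7), nuclear partners of beta-catenin, led in Gut Mesenchyme/Amniotic Mesoderm. Apc (286 ± 42.8) and Apc2 (111 ± 13.0), of the complex that degrades beta-catenin, and Porcn (30.6 ± 9.54), which attaches the lipid to Wnt ligands, led in Neuroectoderm/Glia. The summed ligands, though not each ligand, had their lowest mean of the ranked types there. Ccnd1, a cell cycle gene, led in Neuronal Progenitor at 549 ± 99.4. Beside Ror1, the others with 1 leading type throughout were Dvl3 and Celsr2 in CNS Neuron, Msx2 in Chondrocyte and Ryk in Epithelial Cell.

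Detection of 2 genes in the same cells was compared for 13 pairs, with each cell thinned to 5000 gene UMIs. In 4 pairs the share of cells with the second gene was higher among cells with the first in all 4 suspensions, and in 0 pairs it was lower in all. The count was 8 without thinning and 1, Sfrp1 with Sfrp2, at 2000 gene UMIs, where Wnt3a with Rspo3 was higher in the 3 suspensions that gave a value, Wnt7a with Wnt7b in 3 of 4 and Wnt3 with Wnt7b in 2 of 3. In Ependymal Cell, Rspo3 was found in 11 of 12 cells with Wnt3a (91.7%, exact Clopper-Pearson 95% interval 61.5 to 99.8%) and in 17 of 123 cells without it (13.8%, 8.26 to 21.2%). By suspension these were 3 of 3, 3 of 4, 4 of 4 and 1 of 1 cells, against 16.2, 14.3, 3.85 and 18.8%, with no overlap. In Epithelial Cell, Wnt7b was found in 42.9% of 28 cells with Wnt3 (24.5 to 62.8%) and 15.6% of 122 cells without it (9.64 to 23.2%), with 1 of 4, 3 of 7, 5 of 11 and 3 of 6 cells by suspension against 16.7, 11.1, 14.3 and 20.7%, again without overlap. Without thinning the differences were 83.2 and 45.4 percentage points, against 77.8 and 27.3 after it. Wnt7b with Wnt7a in Neuronal Progenitor (44.1% of 34 against 21.1% of 555 cells) and Sfrp2 with Sfrp1 in Chondrocyte (44.5% of 155 against 32.4% of 139 cells) had overlapping ranges. Among 202 red blood cells at the same depth, Rspo3 was found in 1, Sfrp2 in 2 and Wnt7b in 0. The intervals cover counting error only, and cells of 1 suspension are not independent embryos.

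The other 9 pairs were not higher in all 4 suspensions. Wnt1 with Wnt3a (35.7 against 5.79%), Wnt1 with Rspo1 (57.1 against 13.2%) and Wnt1 with Fzd10 (35.7 against 1.65%), all in Ependymal Cell with 14 Wnt1 cells, were higher in 2, 3 and 3 suspensions, with Fzd10 at 0 on both sides in the other one. Wnt6 with its neighbour Wnt10a in Epithelial Cell (9.68 against 1.14%), Axin2 with Lef1 in Ependymal Cell (36.0 against 21.8%), and Wnt5a with Ror2 (55.6 against 51.0%) and with Wnt11 (8.99 against 6.54%) in Mesodermal Progenitor were higher in 3 each. At 2000 gene UMIs the difference for Wnt6 with Wnt10a was -0.893 percentage points, and without thinning that for Axin2 with Lef1 was -1.95. Wnt2 with Rspo2 in Chondrocyte (7.14 against 4.64%) and Fzd5 with Fzd8 in Ependymal Cell (14.3 against 6.25%) were higher in 1, and at 2000 gene UMIs their differences were -2.73 and -4.48 percentage points.

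**Figure D4:**
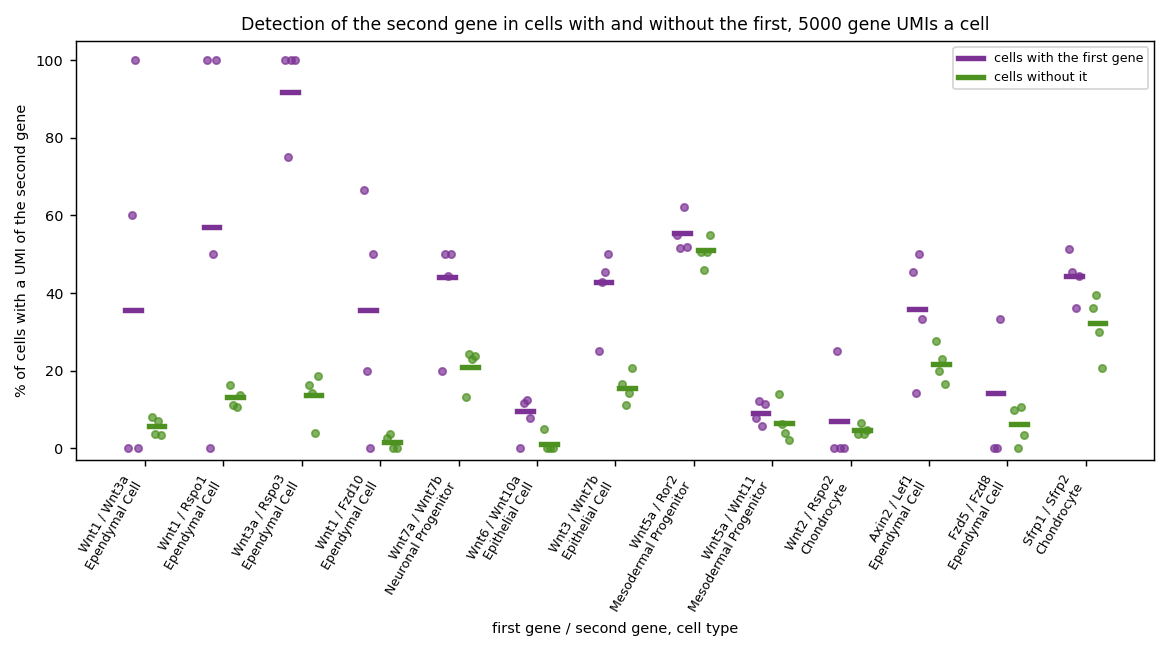
Share of cells (%) with a UMI of the second gene of each of 13 pairs, among cells with the first gene (purple) and without it (green), after thinning to 5000 gene UMIs: points are suspensions and bars all cells together. For Wnt3a with Rspo3 the purple points lie at 75.0 to 100% and the green at 3.85 to 18.8%.

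Founder and F1 suspensions were compared within each of the 13 types with at least 20 cells in every suspension, to see whether the use of these genes differed between generations. UMIs were summed per suspension and type, and 2 founder suspensions were tested against 2 F1 suspensions with edgeR's quasi-likelihood test over all genes of a type, with Benjamini-Hochberg adjustment within it. Of 238 gene and type pairs from 37 of the 41 genes, 7 were called at an adjusted p under 0.05 (2.94%), against 746 of 99241 pairs of all genes (0.752%). In 5 the level was higher in founders and in 2 lower, against 0.492 and 0.26% of all pairs. The 7 pairs lay in 4 genes, Sfrp2, Sfrp1, Lef1 and Wnt11, and in 4 of the 13 types. The count of 7 moved with the filter, the method and the suspensions used, as given in the last section. At an unadjusted p under 0.05 there were 53 pairs, but the share of all pairs at that limit was not computed. The groups did not overlap in 114 of the 238 pairs (47.9%), against 40.5% of all pairs. The median log2 difference was 0.0073 over these pairs and -0.00076 over all. By type, the share of all genes called was 1.16% in Chondrocyte, 1.62% in Gut Mesenchyme/Amniotic Mesoderm, 1.07% in Mesodermal Progenitor and 1.68% in Foregut, where the calls lay. It was 0.777% in CNS Neuron, 0.0134% in Ependymal Cell, 0.0679% in Hepatocyte, 1.79% in Midgut, 1.15% in Neuroectoderm/Glia and 0.656% in Neuronal Progenitor, and 0% in Endodermal Progenitor, Epithelial Cell and Myoblast/Cardiomyocyte, where none of these genes was called. In the last 3 types, 0, 7 and 5 of the tested genes of the set had an unadjusted p under 0.05, again without a share over all genes.

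Sfrp2 was higher in founders in 3 types. In Chondrocyte it was at 306 and 303 CPM in F0_8 and F0_9 and at 172 and 119.6 in F1_1 and F1_mix, a log2 difference of 1.06 (SE 0.15, edgeR adjusted p = 0.00476), and without the filter on low counts the adjusted p was 0.387. In Mesodermal Progenitor it was at 189.8, 166, 75.1 and 88.2, a log2 difference of 1.12 (SE 0.11, adjusted p = 0.000535). In both types the founders lay above both F1 suspensions with a gap larger than the spread within either generation. In Foregut, a shallow type, the levels of 131, 316, 24.9 and 10.4 rested on 11, 15, 3 and 1 UMIs, found in 5, 3, 3 and 1 cells (log2 difference 3.48, SE 0.80, adjusted p = 0.0073), and the call was lost without F0_9 (adjusted p = 0.771) and with DESeq2 (0.999). Over the 11 types in which Sfrp2 was tested, the estimate was above 0 in 9, and it was -0.59 in CNS Neuron and -0.32 in Neuronal Progenitor, with adjusted p of 0.766 and 0.615. The difference between types was not tested. The RefSeq window of Sfrp2 before its start (chr3:83766071-83766320, plus strand), shown because this gene carried most calls, held neither the letters CTTTGAT nor ATCAAAG.
Sfrp2: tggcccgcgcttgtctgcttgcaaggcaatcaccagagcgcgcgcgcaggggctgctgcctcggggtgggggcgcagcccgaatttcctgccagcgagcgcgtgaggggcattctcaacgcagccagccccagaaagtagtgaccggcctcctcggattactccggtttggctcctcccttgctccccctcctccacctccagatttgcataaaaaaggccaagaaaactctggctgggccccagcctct

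Sfrp1, the close relative of Sfrp2, was lower in founders in both Mesodermal Progenitor and Gut Mesenchyme/Amniotic Mesoderm. In Mesodermal Progenitor it was at 86.0 and 70.7 in founders and 126 and 113 in F1 suspensions (log2 difference -0.61, SE 0.12, adjusted p = 0.0299), and in Gut Mesenchyme/Amniotic Mesoderm at 141, 142, 211 and 182 (log2 difference -0.48, SE 0.097, adjusted p = 0.0422). Over the 10 types in which Sfrp1 was tested, the estimate was above 0 in 4 and below 0 in 6. Neither call held with a founder left out. In Gut Mesenchyme/Amniotic Mesoderm the call was also lost without F1_1. Over 9 alternatives the estimates ranged from -0.757 to -0.494 in Mesodermal Progenitor and from -0.601 to -0.365 in Gut Mesenchyme/Amniotic Mesoderm. With DESeq2 the adjusted p was 0.426 in Mesodermal Progenitor and 0.247 in Gut Mesenchyme/Amniotic Mesoderm. With adjustment over all types together it was 0.0712 in Gut Mesenchyme/Amniotic Mesoderm.

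Lef1 was higher in founders in Gut Mesenchyme/Amniotic Mesoderm, at 134 and 135 against 38.0 and 70.8 (log2 difference 1.22, SE 0.19, edgeR adjusted p = 0.0121). The call was lost without F0_8 and without F0_9, and the estimate ranged from 0.915 to 1.79 over 9 alternatives. Of the 12 types in which Lef1 was tested, the estimate was above 0 in 9, and it was -0.52 in Chondrocyte and -0.53 in CNS Neuron (adjusted p of 0.716 and 0.69). Its counts in Gut Mesenchyme/Amniotic Mesoderm were 440, 304, 53 and 150 UMIs, in 90, 66, 26 and 67 cells. Wnt11 was higher in founders in Mesodermal Progenitor, at 34.0 and 23.9 against 14.0 and 13.7 (log2 difference 1.07, SE 0.24, adjusted p = 0.0443), and the adjusted p was 0.473 without F0_8, above 0.99 with DESeq2 and 0.0601 with adjustment over all types together. In the 3 other types in which Wnt11 was tested its estimates were also above 0, at 1.36 in Chondrocyte, 0.87 in Gut Mesenchyme/Amniotic Mesoderm and 0.72 in Myoblast/Cardiomyocyte, with adjusted p of 0.136, 0.101 and 0.662.

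**Figure D5:**
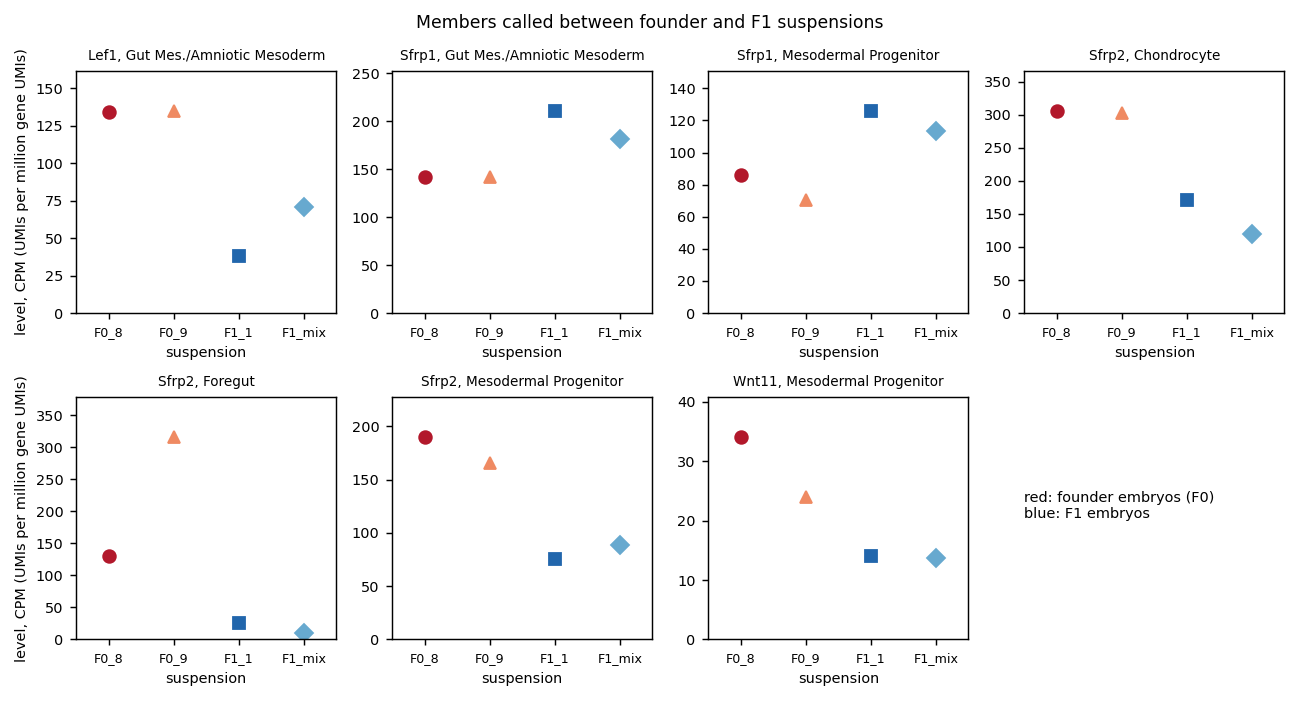
Level (CPM) in each of the 4 suspensions for the 7 gene and type pairs called between founders (red) and F1 suspensions (blue). Founders lie above in the 3 panels of Sfrp2 and in those of Lef1 and Wnt11, and below in both panels of Sfrp1.

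Marker levels and cell shares of the suspensions in the same types were as follows. The 4 chondrocyte markers (Sox9, Col2a1, Acan and Col9a1) summed to 839 and 827 CPM in founders against 452 and 588 in F1 suspensions in Chondrocyte, to 1022 and 969 against 656 and 599.8 in Gut Mesenchyme/Amniotic Mesoderm, and to 693 and 622 against 418 and 538 in Mesodermal Progenitor. In Foregut they summed to 261 and 295 against 232 and 209, with Acan at 0. Of 22 marker lists, 8 did not overlap between generations in Chondrocyte, 12 in Gut Mesenchyme/Amniotic Mesoderm, 8 in Mesodermal Progenitor and 5 in Foregut. The share for single genes over all tested types was 40.5%. It is not a matched share, since the lists sum several genes, share some of them and in part lie near the floor. Cells of Gut Mesenchyme/Amniotic Mesoderm were 16.2 and 13.0% of the founders' cells and 7.40 and 10.1% of those of the F1 suspensions. Chondrocyte was 5.50 and 6.22% against 4.27 and 4.82%, and Mesodermal Progenitor (8.19 and 7.28% against 9.77 and 9.72%) and Foregut (3.50 and 2.66% against 5.50 and 4.27%) were lower in founders. The part of these differences in the calls was not tested. Y-linked genes were high in F0_8 and F1_mix (243 and 117 CPM) and low in F0_9 and F1_1 (2.99 and 2.27), so sex did not follow generation. With 2 suspensions a generation, differences between single embryos and differences between generations cannot be told apart.

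Among the 57 other genes of the pathway, which leave out Ror1 and Ror2, 49 could be tested, and 3 of 396 gene and type pairs were called (0.758%), 1 higher and 2 lower in founders, against 0.752% of all pairs. The share of calls was thus near that of all genes. Ccnd1 was lower in founders in CNS Neuron, at 194 and 170.0 against 356 and 296 normalised CPM (log2 difference -0.84, SE 0.12, adjusted p = 0.00955). Prickle1, of the planar polarity pathway, was higher in Chondrocyte, at 257 and 341 against 186 and 181 (0.70, SE 0.14, adjusted p = 0.0301).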

How the data were processed

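The authors deposited UMI counts per gene and cell barcode, which the matrix headers credit to Cell Ranger 7.2.0 (the study names both this release and an earlier one) against GRCm38 with the EGFP sequence added, and a table that gives each cell's suspension and type. Their methods name SoupX for free RNA, DoubletFinder for doublets and Seurat for clustering. The counts used here are uncorrected, no doublet caller was run, and 20 other columns of the cell table were not used. The 41 genes are defined by symbol, but this set and all lists were chosen with earlier results of these data known. Genes were named as follows. All 41 genes are accounted for, those led by 1 deep type in all 4 suspensions with their values, as are the genes called between generations (with the exception given last) and the 10 genes most like Axin2 (Pearson correlation of log2 of the level plus 1). Nkd1, Nkd2 and Lgr5 were named after their values were seen. Suspensions, not cells, were the replicates. Per type, genes passing filterByExpr were fitted with edgeR 4.0.16 (TMM scaling) in R 4.3.3, and DESeq2 1.42.0 was an alternative. Sums held 43442 to 4377664 UMIs and tested 494 to 11260 genes. In simulated data for Neuronal Progenitor (10502 genes), 65 of 100 genes changed by a log2 of 1 and 98 of 100 changed by a log2 of 2 were recovered, with 4 false calls, and for Ependymal Cell (7138 genes) 54 and 96 of 100, with 12 false calls. The simulation used 1 fixed dispersion for all genes, not estimated from these suspensions, and changed only genes above a set mean count. These shares therefore do not give the power for sparser genes or for the real spread between embryos. Other steps used numpy 2.4.6, scipy 1.17.1 and pandas 2.3.3 under Python 3.11.15, with plots by matplotlib 3.10.9. For thinning, 5000 of the gene UMIs of a cell were drawn at random, and cells with fewer were dropped. Promoter windows and gene positions were RefSeq's for GRCm38.p6. The values of 1 called gene of the wider pathway list are not reported here.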

Additional observations from a re-analysis of the deposited data

Results flagged for a closer look

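In 46 groups of 4 suspensions (each measured gene in its leading type and each role in its leading type), 4 had a suspension far from the other 3 by Dixon's test. Chance alone flags about 1 in 20 groups that are chosen without regard to their values. These types were chosen by the highest mean of the same 4 values, so that rate does not apply to them directly. Wnt3a in Ependymal Cell was 52.0 CPM in F1_1, against 24.6 to 28.5 in the others. Axin2 in the same cells was 79.4 in F0_8, against 30.7 to 37.8. Ror1 in Gut Mesenchyme/Amniotic Mesoderm was 381 in F1_mix, against 319.6 to 326, and Dkk1 in Chondrocyte was 2.12 in F0_8, against 15.2 to 17.3.

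The estimates for Sfrp1 had opposite signs in different types, and only those in Gut Mesenchyme/Amniotic Mesoderm and Mesodermal Progenitor, both negative, passed the test. It was lower in both founders than in both F1 suspensions in Gut Mesenchyme/Amniotic Mesoderm and Mesodermal Progenitor, and higher in both founders in Neuronal Progenitor (log2 difference 0.59, edgeR adjusted p = 0.181) and in CNS Neuron (0.28, adjusted p = 0.818). The difference between the types was not tested.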

How the results depend on the processing

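The count of 18 genes led by 1 type stayed within 1.5 times under most alternatives. It was 18 without mitochondrial and globin genes in the denominator, 19 with each cell weighted equally, 17 with cells under 5% mitochondrial UMIs, 14 over the deep and shallow types together (10 genes shared), 12 with cells thinned to 5000 gene UMIs (10 shared), 12 with genes of at least 200 UMIs, 18 to 22 with 1 suspension left out, and 9 where the leading type had to reach 1.5 times the next in each suspension. Of 40 genes, 31 to 40 kept the type of highest mean. The 7 calls between generations became 7 with median-of-ratios scaling, 24 without the filter (6 shared), 4 with DESeq2 (3 shared), 7 with cells under 5% mitochondrial UMIs, where Foregut could not be fitted, 6 with adjustment over all pairs, and 4 to 16 with 1 suspension left out (4 without F0_8, 10 without F0_9, 16 without F1_1 and 16 without F1_mix). A lone suspension was then assumed to vary like the other pair. For all genes, 746 pairs became 3154 without the filter, 419 with DESeq2 and 511 to 1585 with 1 suspension left out. Sfrp2 in Mesodermal Progenitor passed in all 9 alternatives, with adjusted p up to 0.00568. Sfrp2 in Chondrocyte was lost without the filter (adjusted p = 0.387). With DESeq2 the adjusted p was 0.999 for Sfrp2 in Foregut and above 0.99 for Wnt11, and 0.247 and 0.426 for Sfrp1 in Gut Mesenchyme/Amniotic Mesoderm and Mesodermal Progenitor. With adjustment over all pairs it was 0.0712 for Sfrp1 in Gut Mesenchyme/Amniotic Mesoderm and 0.0601 for Wnt11. None of the 7 changed sign in these alternatives, and the cause of the losses was not tested. The 4 pairs of genes found together in all suspensions became 1 at 2000 gene UMIs, 8 without thinning and 5 to 6 with 1 suspension left out. The difference for Wnt6 with Wnt10a was -0.893 percentage points at 2000 gene UMIs and that for Axin2 with Lef1 was -1.95 without thinning. No paired analysis was possible because the suspensions share no replicate numbers in the labels. Depth limits the rare ligands, Ependymal Cell with 32 to 40 cells per suspension, and the shallow types.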
